A study of Mus musculus with 12 samples.

Results

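The comparison described here sets livers of mice on a MASH diet that were treated with FGF21 against livers of mice on chow. It takes 8 of the 12 libraries of the series, chosen by their labels alone, with 4 libraries in each of the groups called FGF21 and chow. The FGF21 group had the MASH diet and FGF21 at 1 mg per kg per day, and the chow group had chow with saline vehicle, with 4 weeks of treatment. The remaining 4 libraries, MASH vehicle, had the MASH diet with vehicle and serve below to show which differences from chow were already there without FGF21. All mice were labelled C57BL6/J, the tissue was whole liver, and the RNA was enriched with oligo-dT. The diet and the agent both differ between FGF21 and chow, so their parts in a difference between these groups cannot be told apart without MASH vehicle. The labels used here do not give the composition of the MASH diet, the sex or age of the mice, or whether each library came from a separate animal. If libraries share an animal, p-values measure only a technical spread.

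MASH, metabolic dysfunction-associated steatohepatitis, is a fatty liver disease with inflammation, hepatocyte injury and scarring. FGF21 is a hormone made largely by the liver that acts where FGF receptors meet the co-receptor Klb, in brain and adipose tissue among others, and it is known for raising energy expenditure and lowering liver fat. Liver handles sterols, fatty acids, nitrogen and hormones in hepatocytes, while Kupffer cells, stellate cells and sinusoidal endothelial cells hold its immune, matrix and vascular functions. In RNA of whole liver, a larger number of cells of a type and more RNA per cell cannot be told apart.

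The values are TPM, transcripts scaled to a total of 1000000 in each library, so a gene's value is a share of the library and the read depth is unknown. Fold changes are differences of log2(TPM + 1), FGF21 minus chow, and understate the change of genes with low values. The values of single libraries are given in the order of replicates 1 to 4, and means are given ± SD with n = 4 per group. A gene was called where limma's p, adjusted over all 10988 genes tested, was under 0.05. The hepatocyte genes Alb, Apoa1 and Ttr were abundant in every library, and 9 of 10 hepatocyte markers were in the table and tested. FGF21 replicates 1 and 3 stood apart. Of 23 genes of the acinar pancreas, the part of the pancreas that makes digestive enzymes, 3 were in the table, and their summed level was 1036.7 TPM in FGF21 replicate 1 and 1456.4 in FGF21 replicate 3. In the other libraries the sum was 28.4 to 75.2 TPM, of which the elastase Cela1 made up nearly all, while Cela2a and Ctrl were at 0 to 0.5 TPM. All genes in the table together fell short of 1000000 TPM by 7968 in FGF21 replicate 1 and 8206 in replicate 3. The shortfall was 1217 in FGF21 replicate 4 and 110 to 158 in the other libraries. What the missing part consists of was not tested, so the acinar sum may cover only some of it. The islet list was absent from the table, and the summed erythroid genes were 3677.2 and 7051.8 TPM in FGF21 replicates 1 and 3, against 1363.8 to 3935.0 in the others. In the erythroid list 1 of 6 tested genes was higher than chow (1 higher and 1 lower with the trend with GC content, described below, removed), a call lost without FGF21 replicate 1 or 3 or without chow replicate 1, 3 or 4. None of the single muscle gene and the pair of mesothelial genes tested was called, and the muscle gene was lower with that trend removed. Below, counts are also given without FGF21 replicates 1 and 3 where that moved them by more than 1.5 times.

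Differences between FGF21 and chow were widespread. Limma called 5713 of 10988 genes (52%), 4153 higher in FGF21 (37.8%) and 1560 lower (14.2%). The groups did not overlap in 36.5% of genes (30.5% with FGF21 higher, 5.99% with it lower), and MASH vehicle and chow did not overlap in 42.6%. Any list of genes has to be read against these shares. The lower count was 990 without chow replicate 2 and 950 without FGF21 replicate 2. Over all genes the fold change had a median of 0.20 (log2). With scaling by median of ratios the median was 0.02 and the split turned to 2551 higher and 2681 lower, so 48.8% of calls were higher in place of 72.7%. Quantile normalization gave 2528 and 2628, a share of 49.0%. With the mitochondrially encoded, Mup and acinar genes left out of the total, 3202 were higher and 2100 lower (60.4%). As a share of a library, the 13 genes of the mitochondrial genome summed to 11.2% ± 1.43 in chow and 5.67% ± 1.33 in FGF21. For the 22 Mup genes, whose products carry pheromones in urine, the sums were 6.53% ± 0.638 and 3.54% ± 1.30. Neither share overlapped between the groups, with FGF21 the lower (two-sided p = 0.0286 each by exact permutation, the smallest that 4 against 4 can give, adjusted p = 0.0429 over 3 shares). The Mup share no longer passed when any one of the chow libraries was left out (exact permutation p = 0.0571 each), while the mitochondrial share kept p = 0.0286. Even so, the Mup share still did not overlap between the groups and differed by −3.19 to −2.72 percentage points. For the acinar genes the same exact permutation test gave p = 0.429.

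The fold change ran with the GC content of the gene. Across the 10810 genes with a known GC content (98.4%), Spearman's rho between GC content and fold change was 0.607, a description over genes that share the same 8 libraries. In the decile of genes with the lowest GC content (31.0 to 41.6%), the median log2 fold change was −0.44, with 42 genes called higher and 561 lower. In the decile with the highest (58.0 to 68.7%), it was 0.56, with 680 higher and 15 lower. In the top decile every FGF21 library lay above every chow library, while in the bottom decile FGF21 replicate 1 lay within the chow range. The top decile lay 0.36 to 0.66 above the chow mean in the FGF21 libraries, 0.14 to 0.36 in MASH vehicle, and −0.11 to 0.09 in single chow libraries. The bottom decile lay −0.64 to −0.05 from the chow mean in FGF21, with replicate 1 nearest to it, −0.41 to −0.22 in MASH vehicle, and −0.21 to 0.26 in chow. With each library's trend with GC content removed, 1622 genes were called higher and 1726 lower, and 2227 of the 5713 calls were kept in the same direction. What the trend comes from was not tested. The counts of gene lists below are therefore given with the count after this trend was removed. Such counts have to be read against 1622 higher and 1726 lower among 10810 genes.

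**Figure D1:**
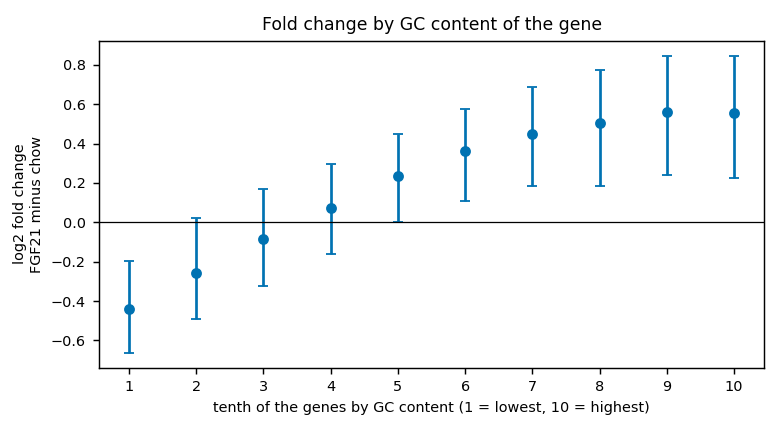
The horizontal axis divides the genes tested with a known GC content into deciles, from lowest to highest, and the vertical axis is the log2 fold change of FGF21 minus chow. Points are medians and bars run from the lower to the upper quartile of the genes. The median climbs from −0.44 in the lowest decile to 0.56 in the highest.

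**Figure D2:**
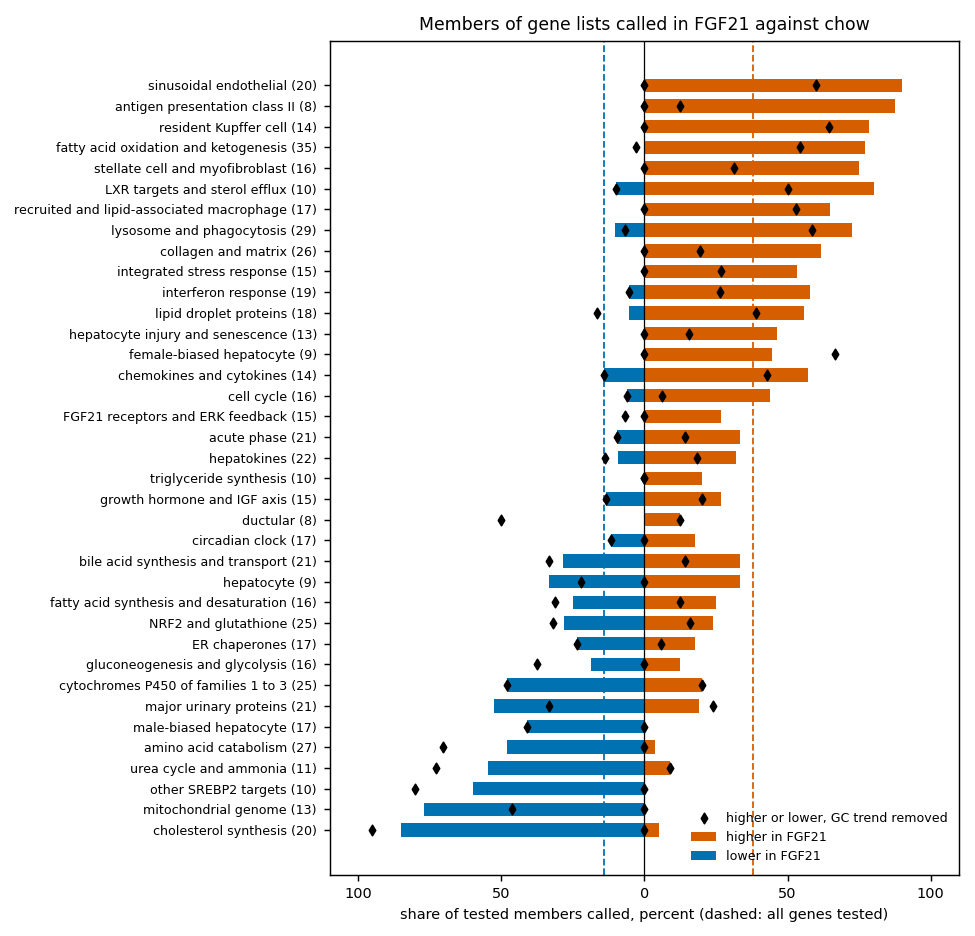
Each row is a gene list with its number of tested members in brackets, and bars give the percentage of members called higher (right) or lower (left) in FGF21 than in chow. Diamonds give the same with the GC trend removed, and dashed lines the shares over all genes tested (37.8% higher, 14.2% lower). Sterol synthesis stands at the lower end in both settings, with 17 of 20 members lower and 19 of 20 with the GC trend removed, and sinusoidal endothelial genes at the upper end.

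The largest single differences fell in genes of mixed function, lipid genes and sterol enzymes among them. Among the 2485 higher and 431 lower genes that met the naming conditions, the highest fold change was in Cyp2a4, a steroid hydroxylase that is female-biased in mouse liver (chromosome 7, 26307169 to 26315088 of GRCm38). It was at 61.5, 12.1, 16.8 and 9.4 TPM in FGF21 and 0.1, 3.1, 0.2 and 0.1 in chow, a log2 fold change of 3.66 ± 0.577 SE (adjusted p = 0.000424). FGF21 replicate 1 was far above the rest, chow replicate 2 was the only chow library above 1 TPM, and the groups did not overlap. A near-identical neighbour, Cyp2a5, can share reads with it. Adam11, which encodes a membrane protein of the ADAM family without protease activity (chromosome 11, 102761439 to 102780262), was at 13.8, 94.3, 55.6 and 78.2 TPM against 2.3, 3.9, 4.2 and 2.6 (3.59 ± 0.441 SE, adjusted p = 0.000101). Its lowest FGF21 library, replicate 1, still lay above every chow library, and MASH vehicle was at 31.2, 33.5, 52.6 and 39.3. Cyp4a14, a fatty acid omega-hydroxylase and a classic target of the receptor PPARα (chromosome 4, 115486200 to 115496142), was at 901, 808.1, 407.2 and 681.4 TPM against 47.5, 202.6, 37.2 and 27.1 (3.56 ± 0.495 SE, adjusted p = 0.000211). Chow replicate 2 was again the highest of the chow libraries.

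Marco, a scavenger receptor of macrophages, was at 42.1, 8.6, 18.5 and 28.3 TPM in FGF21 against 3.4, 2.3, 1.3 and 1.7 in chow (2.84 ± 0.368 SE, adjusted p = 0.000136). It lay above MASH vehicle too (11.6, 6.3, 8.4 and 6.6, adjusted p = 0.0418 for FGF21 against MASH vehicle), though FGF21 replicate 2 overlapped that group. Cidec, which fuses lipid droplets, was at 41.9, 171.9, 155.5 and 55 TPM against 4.9, 29.4, 10.9 and 15.6 (2.71 ± 0.485 SE, adjusted p = 0.000891). All FGF21 libraries lay between the chow libraries and MASH vehicle (338.3, 390.9, 342.6 and 467.9). Rad51b, a gene of homologous recombination repair, was at 9.5, 6.7, 5.4 and 4 TPM against 0.1, 0.3, 0.2 and 0.1, with MASH vehicle at 7.5, 12.8, 9.3 and 9.8 (2.61 ± 0.201 SE, adjusted p = 9.43e-06).

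Among the falls, Idi1 of sterol synthesis comes with its pathway below. Nnmt, which methylates nicotinamide (chromosome 9, 48591877 to 48605153), was at 7.9, 14, 21.5 and 32.1 TPM in FGF21 and 118.2, 130.4, 149.2 and 156 in chow (−2.96 ± 0.44 SE, adjusted p = 0.000305), and MASH vehicle was at 16.5, 4.8, 4.6 and 19.1. Every library on the MASH diet lay far under every chow library. Clec2h, of the C-type lectin family, was at 0.1, 0.6, 0.5 and 0.2 TPM against 5.2, 11.3, 10 and 9.8 (−2.87 ± 0.278 SE, adjusted p = 2.35e-05). Zfp969, a zinc finger gene, was at 12.1, 0.2, 5.2 and 1.9 against 38.9, 37.3, 21.3 and 14.6 (−2.72 ± 0.61 SE, adjusted p = 0.00323). Bhmt, which uses betaine to remethylate homocysteine (chromosome 13, 93616675 to 93637961), was at 289.5, 541.4, 834.8 and 749.2 TPM against 2213.5, 3095.6, 3003.6 and 2291.5 (−2.23 ± 0.289 SE, adjusted p = 0.000138). It was lower than in MASH vehicle as well (1195.9, 874.3, 1256.2 and 1766, adjusted p = 0.026), with no overlap between the FGF21 libraries and either other group. All 12 genes named for their size kept their call with the GC trend removed, with median-of-ratios scaling, and without FGF21 replicates 1 and 3.

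**Figure D3:**
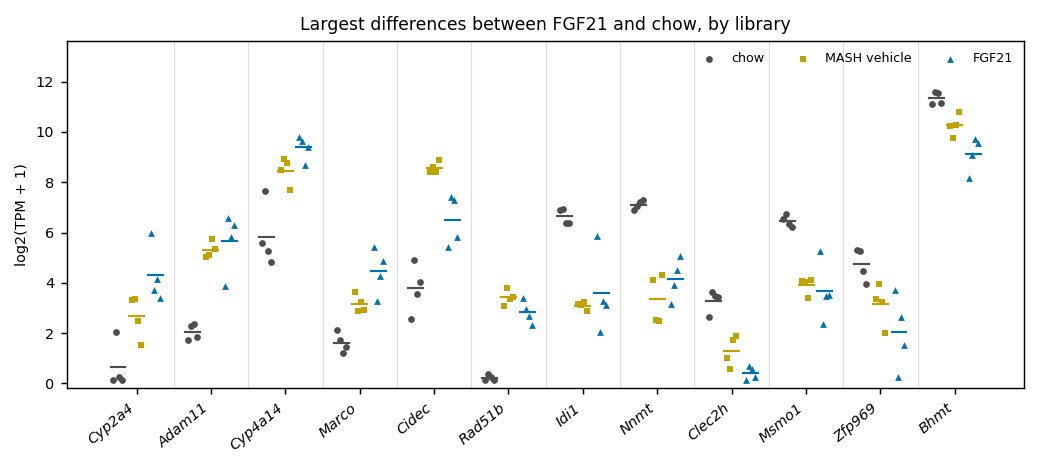
The horizontal axis lists the 6 largest rises and the 6 largest falls of FGF21 against chow, and the vertical axis is log2(TPM + 1). Points are libraries, 4 per group, and short lines are group means. For Cidec the FGF21 libraries (41.9 to 171.9 TPM) lie between chow and MASH vehicle, while for Nnmt, Idi1 and Msmo1 they overlap MASH vehicle.

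Sterol synthesis stayed low. Cholesterol is built from acetyl units through mevalonate and squalene, and the genes of its enzymes are switched on together by the transcription factor SREBP2 when membranes run short of sterol. Of 20 genes of cholesterol synthesis, 17 were lower in FGF21 than in chow and 1 was higher, with a median log2 fold change of −1.26 against 0.20 over all genes. With the GC trend removed 19 were lower and 0 higher. In the comparison of FGF21 with MASH vehicle, 0 of the 20 passed in either direction at the adjusted p of limma, where 10.3% of all genes did (6.02% higher, 4.28% lower), and the median was 0.10. Idi1, the isomerase that makes the active isoprene unit (chromosome 13, 8885501 to 8892451), was at 57.4, 3.1, 8.8 and 7.7 TPM in FGF21 and 118.9, 121.8, 82.8 and 83.2 in chow (−3.08 ± 0.56 SE, adjusted p = 0.000982). FGF21 replicate 1 was the only FGF21 library above 10 TPM, and MASH vehicle was at 7.9, 7.8, 8.4 and 6.3. Msmo1, a methylsterol oxidase, was at 37.7, 4.2, 10.2 and 10.4 TPM against 91.8, 104.7, 80.5 and 72.9 (−2.79 ± 0.429 SE, adjusted p = 0.000373), again highest in FGF21 replicate 1. Tm7sf2, a sterol reductase, was at 159.3, 106.8, 123.8 and 123.7 TPM against 288, 269.9, 294.2 and 271.3 (−1.14 ± 0.123 SE, adjusted p = 4.82e-05). In all 3 genes FGF21 replicate 1 was the FGF21 library nearest to chow.

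Other targets of SREBP2 went the same way in part. Of 10 tested, 6 were lower and 0 higher, 8 lower with the GC trend removed. The sterol dehydrogenase Nsdhl, which stands in both lists, was at 15.1, 3.4, 6.6 and 8.9 TPM against 27.5, 21.9, 29.6 and 30.2 (−1.72 ± 0.288 SE, adjusted p = 0.000621), and Sc5d, a desaturase shared likewise, at 170.8, 94.9, 91.8 and 139.7 against 350.8, 323.7, 266.9 and 233.5 (−1.26 ± 0.21 SE, adjusted p = 0.000588). Insig1, a sterol sensor partner, fell by 1.39 on the log2 scale. Srebf2, which encodes SREBP2 itself, was not called (0.41), and both were chosen for mention once their values were known.

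The promoters of these genes share a sequence feature. The windows in RefSeq's table run from 250 bases before to 50 bases after the start that RefSeq gives (build GRCm38.p6). That start can differ from the GENCODE positions given above, as it does for Idi1. The windows were searched on both strands for CCAAT, the letters bound by NF-Y, a factor known to work beside SREBP on sterol promoters. Of 15 cholesterol synthesis genes with a window, 14 held the letters (93.3%), Acat2 being without, and so did 7 of 7 other SREBP2 targets, some of which stand in both lists. Among all 27025 genes with a window it was 41.1%, and among the 8750 of them tested here 43.1%. A match is a description of the letters and no evidence of binding. The windows of 4 of the 5 sterol enzymes whose levels are given above are shown, 5′ to 3′ on the strand of the gene, as examples of the genes that stayed low, and that of Sc5d, not shown, holds 1 match; capitals mark CCAAT or its reverse complement ATTGG. They lie at chr13:8885356-8885655 (plus strand) for Idi1, chr8:64733529-64733828 (minus) for Msmo1, chrX:72918271-72918570 (plus) for Nsdhl and chr19:6067801-6068100 (minus) for Tm7sf2.
Idi1: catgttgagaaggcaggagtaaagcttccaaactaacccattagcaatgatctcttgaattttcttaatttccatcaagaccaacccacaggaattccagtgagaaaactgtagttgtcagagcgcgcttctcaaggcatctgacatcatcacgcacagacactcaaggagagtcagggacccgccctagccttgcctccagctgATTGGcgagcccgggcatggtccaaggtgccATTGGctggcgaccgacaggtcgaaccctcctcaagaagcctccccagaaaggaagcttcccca
Msmo1: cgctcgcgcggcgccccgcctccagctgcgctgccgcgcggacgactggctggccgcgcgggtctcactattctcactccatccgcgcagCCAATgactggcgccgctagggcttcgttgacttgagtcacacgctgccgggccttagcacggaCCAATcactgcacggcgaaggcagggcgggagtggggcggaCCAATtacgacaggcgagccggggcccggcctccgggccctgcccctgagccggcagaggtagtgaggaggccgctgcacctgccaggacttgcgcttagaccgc
Nsdhl: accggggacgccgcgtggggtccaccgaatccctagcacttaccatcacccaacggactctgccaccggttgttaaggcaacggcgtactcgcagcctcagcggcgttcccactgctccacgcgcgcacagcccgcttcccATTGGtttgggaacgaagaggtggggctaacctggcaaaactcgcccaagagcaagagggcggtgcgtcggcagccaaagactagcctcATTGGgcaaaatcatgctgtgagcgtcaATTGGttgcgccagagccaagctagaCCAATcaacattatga
Tm7sf2: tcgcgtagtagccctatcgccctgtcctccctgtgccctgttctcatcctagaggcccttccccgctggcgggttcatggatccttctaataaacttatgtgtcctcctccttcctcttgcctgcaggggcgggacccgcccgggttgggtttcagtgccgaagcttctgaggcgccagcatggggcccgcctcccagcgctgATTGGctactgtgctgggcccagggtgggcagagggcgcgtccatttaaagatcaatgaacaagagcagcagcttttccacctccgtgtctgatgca
Tm7sf2 holds 1 match, Idi1 2, Msmo1 3 and Nsdhl 4.

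The receptor LXR, which senses surplus sterol, drives genes of sterol efflux, and these stood on the other side. Of 10 tested, 8 were higher in FGF21 and 1 lower, the phospholipid transfer protein Pltp, named after its value was seen. With the GC trend removed 5 were higher and 1 lower, and without FGF21 replicate 2 the count higher was 5. Abcg8, one of the pair of pumps that move cholesterol into bile, was at 199.7, 366.5, 257.3 and 257.4 TPM against 77.6, 105, 102.1 and 116.9 (1.40 ± 0.17 SE, adjusted p = 9.25e-05). MASH vehicle overlapped FGF21 there (235.5, 188.1, 224.4 and 212.2). Abcg1, an efflux pump of macrophages, was at 1.7, 2.5, 2.1 and 2.6 TPM against 0.7, 0.9, 0.9 and 0.8 (0.81 ± 0.113 SE, adjusted p = 0.000201).

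Genes of fatty acid oxidation and ketone synthesis stayed high. Of 35 tested, 27 were higher in FGF21 than in chow and 0 lower (median 0.62), and 19 were higher and 1 lower with the GC trend removed. Ehhadh, a peroxisomal oxidation enzyme, was at 268.7, 405.8, 219.1 and 248.7 TPM against 85.5, 103.3, 84 and 83.4 (1.64 ± 0.183 SE, adjusted p = 6.05e-05), with MASH vehicle at 323.5, 413.8, 339.2 and 252.1. Cyp4a31, a fatty acid hydroxylase, was at 57.5, 23, 20.5 and 25.4 TPM against 4.1, 6.1, 4.6 and 4.3 (2.38 ± 0.286 SE, adjusted p = 9.01e-05), and its close relatives in the family can share reads. The groups did not overlap in either gene. Cpt1a, which admits fatty acids to mitochondria, was not called (0.41) and was named after its value was seen.

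Lipid droplet proteins were partly higher, with 10 of 18 above chow and 1 below, Hsd17b13, named after its value was seen. With the GC trend removed it was 7 and 3. Against MASH vehicle, 6 of the 18 were lower in FGF21 and 0 higher (4.28% and 6.02% of all genes). Hsd17b11 was at 113.3, 135.4, 101.8 and 132.7 TPM against 54, 56.6, 63.5 and 64.9 (1.00 ± 0.114 SE, adjusted p = 6.79e-05), and the monoglyceride lipase Mgll at 205.3, 343.5, 223.7 and 266.6 against 80.4, 116.1, 85.8 and 92.8 (1.45 ± 0.166 SE, adjusted p = 6.79e-05). Cidea, a droplet protein of brown fat and fatty liver, was at 1.1, 16, 19.9 and 3.4 TPM against 1.6, 4.2, 0.2 and 2.6 and did not pass, with a 95% interval of the log2 fold change from 0.04 to 2.86 (adjusted p = 0.0769, 0.0172 without FGF21 replicate 1). FGF21 replicates 1 and 4 lay in the chow range and replicates 2 and 3 above it, all under MASH vehicle (42, 104.7, 118.1 and 104.5). Cfd, the complement factor adipsin, had the same split, at 5.3, 41, 33.3 and 1.2 TPM against 0.9, 3.3, 2.1 and 5.3 (interval −0.08 to 3.57, adjusted p = 0.0984, 0.0205 without FGF21 replicate 4). In the adipocyte list 2 of 4 tested members were higher, Plin4 and Fabp4, and 2 with the GC trend removed. Plin4 was at 3.9, 48.5, 29.2 and 34.9 TPM against 1, 5.6, 5.2 and 3 (2.41 ± 0.601 SE, adjusted p = 0.00568), and Fabp4 at 24.5, 13.4, 23.3 and 11.2 against 8.7, 9.3, 6.8 and 7.2 (1.02 ± 0.282 SE, adjusted p = 0.00956, 0.109 without FGF21 replicates 1 and 3). The summed adipocyte markers were 2269.2 to 2928.0 TPM in FGF21 and 2927.9 to 4040.0 in chow, mostly Car3, and Plin1 and Lep were not among the genes tested.

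Fatty acid synthesis was split, with 4 of 16 genes higher and 4 lower, against 37.8% and 14.2% of all genes. With the GC trend removed it was 2 and 5. The desaturase Fads2 was at 940.3, 984.4, 975.8 and 1406.9 TPM against 371.8, 492.4, 477.7 and 586.8 (1.16 ± 0.179 SE, adjusted p = 0.000392), and Acss2, which makes acetyl-CoA from acetate, at 65.1, 54.3, 84 and 141.5 against 209.8, 160.4, 222.4 and 186.2 (−1.25 ± 0.229 SE, adjusted p = 0.00102). Scd1, the main desaturase of liver, was at 3103.1, 6180.4, 6598.7 and 2299.2 TPM in FGF21 and 5793.6, 5841.6, 4556.7 and 3097.7 in chow, overlapping ranges with a log2 fold change of −0.18 ± 0.306 SE and an interval of −0.84 to 0.48 (adjusted p = 0.644). MASH vehicle was at 14276.3, 15291.6, 13793.7 and 10577 TPM, above every other library (adjusted p = 0.00568 for FGF21 against MASH vehicle). Of 10 triglyceride synthesis genes only Dgat2 and Dgat1, which join the last fatty acid, were called. Dgat2 was at 658.4, 765.5, 817.7 and 1150.5 TPM against 496.5, 568, 566.4 and 591.5 (0.58 ± 0.146 SE, adjusted p = 0.00595), above MASH vehicle too. With the GC trend removed neither passed, and Dgat1 (0.42 ± 0.16 SE, adjusted p = 0.0425) turned to −0.10. The call of Dgat1 was also lost without any one of 3 chow (1, 2, 3), 2 MASH vehicle (1, 2) or 2 FGF21 libraries (2, 4), with adjusted p from 0.054 to 0.119, and under median-of-ratios scaling (0.279). Dgat2 missed the threshold under that scaling (0.0584). Without FGF21 replicate 1 the count was 4, and without FGF21 replicates 1 and 3 it was 5.

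Nitrogen and one-carbon metabolism stayed low. The urea cycle turns ammonia into urea in periportal hepatocytes. Of 11 genes of the urea cycle and of other ammonia handling, 6 were lower and 1 higher (8 and 1 with the GC trend removed). The higher gene, the glutamine synthetase Glul, belongs to the other ammonia handling and was named after its value was seen. Without FGF21 replicates 1 and 3 the count lower was 4. Ass1, argininosuccinate synthase (chromosome 2, 31470207 to 31520672), was at 1899.3, 2341.7, 2740.9 and 3691.5 TPM against 6664.9, 6981.3, 7488.7 and 7208.7 (−1.45 ± 0.182 SE, adjusted p = 0.000115), and Otc, ornithine transcarbamylase, at 188.3, 114, 135.6 and 128.5 against 322.1, 378.9, 274.8 and 259.2 (−1.13 ± 0.179 SE, adjusted p = 0.000444). Every FGF21 library was under every chow library in both genes. Of 27 genes listed for amino acid catabolism 13 were lower, among them Nnmt, which the list also holds and which is described above. The 1 higher was the cystathionine synthase Cbs, named after its value was seen. With the GC trend removed 19 were lower and 0 higher. Cth, the next enzyme after Cbs, was at 86.4, 82.4, 86.6 and 116.9 TPM against 332.9, 295.2, 287.6 and 285.3 (−1.69 ± 0.134 SE, adjusted p = 9.43e-06). Gnmt, which spends surplus methyl groups on glycine, was at 1210.1, 1261.4, 1683.3 and 1718.9 TPM against 3679.2, 4164.9, 3934.4 and 3757.4 (−1.42 ± 0.142 SE, adjusted p = 2.95e-05). In MASH vehicle Cth was at 98, 76.4, 67.7 and 81.9 and Gnmt at 1360.7, 920, 1217.2 and 1190.7, and neither differed between FGF21 and MASH vehicle past the threshold (adjusted p = 0.385 and 0.172).

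Sugar metabolism gave few calls, with 2 of 16 genes higher and 3 lower (0 and 6 with the GC trend removed). Ppp1r3g, a glycogen-targeting subunit, was at 4.7, 5.6, 3.9 and 4 against 2.5, 1.5, 1.8 and 2.7 (0.84 ± 0.238 SE, adjusted p = 0.0113, 0.335 with the GC trend removed). Without chow replicate 3, or without FGF21 replicate 2, only 1 gene was lower.

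Among bile acid enzymes and transporters, 7 of 21 were higher, near the 37.8% of all genes, and 6 lower, where 14.2% were. With the GC trend removed it was 3 and 7. Akr1d1, a steroid reductase of the pathway, was at 23.5, 13, 20.5 and 18.4 TPM against 56.5, 79.4, 48.8 and 42.4 (−1.53 ± 0.212 SE, adjusted p = 0.000201), while Hsd17b4, a peroxisomal enzyme that shortens the side chain, was at 206.7, 296.4, 234.4 and 316.8 against 139.2, 152.3, 156.4 and 168.3 (0.75 ± 0.138 SE, adjusted p = 0.00103). Cyp7a1, whose enzyme sets the pace of the pathway, ranged from 2 to 23.2 TPM in FGF21 and from 7.9 to 16.6 in chow, and its interval of −1.85 to 0.87 leaves a change of either sign possible (adjusted p = 0.534). Without FGF21 replicate 2 the count higher was 4, and without replicates 1 and 3 the count lower was 9.

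Enzymes of drug and steroid metabolism were lower in 12 of 25 cases, where 14.2% of all genes were. Of these 25 cytochromes P450 of families 1 to 3, 5 were higher, and both counts were the same with the GC trend removed. Cyp2c70, which makes muricholic acids in mice, was at 78.1, 60.7, 77.2 and 38.3 TPM against 182.6, 209.2, 168.8 and 159 (−1.53 ± 0.219 SE, adjusted p = 0.000255), and Cyp2c55 at 0.4, 0.2, 0.3 and 0.1 against 2.6, 3, 1.6 and 1.4 (−1.31 ± 0.164 SE, adjusted p = 0.000115). The 5 that were higher were Cyp2a4, Cyp2b9, Cyp2c69, Cyp2d10 and Cyp2d26, the last 3 chosen with their values known. Because these families are close paralogs, the authors' counting may have divided shared reads among them.

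Several of these enzymes differ between the sexes in mouse liver, where pulses of growth hormone set the male pattern. Of 17 male-biased genes 7 were lower and 0 higher, and 7 and 0 with the GC trend removed. Mup20, the male pheromone darcin, was at 2239.2, 1434.7, 1785.4 and 945.7 TPM in FGF21 against 9999.3, 5227.1, 13072.9 and 6862.5 in chow (−2.44 ± 0.283 SE, adjusted p = 7.17e-05), and Ugt2b1, a glucuronosyltransferase, at 102.3, 80.5, 79 and 65.6 against 171.1, 196.5, 193.4 and 156.9 (−1.13 ± 0.131 SE, adjusted p = 7.06e-05). In both genes the FGF21 libraries also lay under all of MASH vehicle (4781.3, 4135.6, 3316.3 and 4398.5 and 116.2, 115.1, 131.7 and 108.8, adjusted p = 0.00858 and 0.0218). Without chow replicate 2 the count lower was 12. Of 22 female-biased genes listed, 9 were tested. Of these, 4 were higher, Cyp2a4, Cyp2b9, Cyp17a1 and Cyp2c69, and 0 lower, a share higher near the 37.8% of all genes. With the GC trend removed it was 6 and 0, where 1622 of 10810 genes were higher. Cyp17a1 and Cyp2c69 were named after the values were seen. Cyp2b9 was at 92.6, 4.8, 12.4 and 22.5 TPM against 0.1, 9.7, 0.1 and 0.3 (3.33 ± 0.81 SE, adjusted p = 0.00503), and the groups overlapped at chow replicate 2. Its call was lost without FGF21 replicates 1 and 3 (adjusted p = 0.0617). That list held 8 higher members without chow replicate 2, 2 without any one of chow replicates 1, 3 or 4 or FGF21 replicate 1, and 1 without FGF21 replicates 1 and 3.

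In the growth hormone and IGF axis, 4 of 15 were higher, Stat5a, Stat5b, Socs3 and Igfbp2, and 2 lower, Igf1 and the receptor Ghr (3 and 2 with the GC trend removed). The counts of 4 and 2 were under the shares of all genes (37.8% and 14.2%). Igf1 and Stat5a were named by rule and the others after their values were seen. Igf1, the growth factor that growth hormone induces in liver, was at 234.1, 247.6, 249.1 and 210.3 TPM against 371, 386.4, 417 and 486.1 (−0.81 ± 0.109 SE, adjusted p = 0.000169), and that call was lost with the GC trend removed (−0.33, adjusted p = 0.168). Stat5a, a transducer of growth hormone, was at 13.6, 19.4, 15.4 and 22.3 against 6.5, 7.9, 7.9 and 6.9 (1.15 ± 0.157 SE, adjusted p = 0.000188). Of 21 tested Mup genes 11 were lower and 4 higher, and 7 and 5 with the GC trend removed. Mup7 was at 1411.1, 1732.1, 2240.6 and 2617.7 TPM against 8382.4, 5341.3, 9402.2 and 10343.9 (−2.06 ± 0.242 SE, adjusted p = 7.62e-05), and Mup genes are near-identical copies whose single values are uncertain. Mitochondrially encoded genes were lower in 10 of 13 cases, 6 with the GC trend removed, with mt-Cytb at 6807.6, 2313.1, 2909.8 and 2822.1 TPM against 14246.3, 15173.4, 10185.8 and 8519.9 (−1.79 ± 0.31 SE, adjusted p = 0.000729). The call of mt-Nd4 (−0.90 ± 0.161 SE) did not survive removal of the trend (adjusted p = 0.123).

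Endogenous Fgf21 RNA was higher than in chow, at 12, 12.6, 11.5 and 5 TPM against 2.8, 7.2, 3.4 and 3.5 (1.11 ± 0.337 SE, adjusted p = 0.0155). FGF21 replicate 4 overlapped the chow range, and the call was lost with the GC trend removed (adjusted p = 0.176) and without FGF21 replicates 1 and 3 (0.12). MASH vehicle was at 17.6, 38.5, 13.8 and 16.4 TPM, above every FGF21 library. It was called higher than chow (2.07 ± 0.337 SE, adjusted p = 0.000515), and FGF21 against MASH vehicle did not pass (0.088). The administered hormone is not RNA and is not part of these values. The co-receptor Klb was at 9.7, 10.9, 8.5 and 13.6 TPM against 9, 11.7, 8.9 and 9 and did not pass (interval −0.22 to 0.46, adjusted p = 0.535). Of 15 receptor and ERK feedback genes 4 were higher, Fgf21, Ier3, Fgfr2 and Etv5, the last named after its value was seen, and 0 of them with the GC trend removed, when 1 was lower. The 4 of 15 were a share under the 37.8% of all genes that were higher. The receptor Fgfr2 was at 10.3, 15.8, 11.2 and 21.9 TPM against 7, 9.8, 8.9 and 9.4 and the immediate early gene Ier3 at 2, 1.3, 2.2 and 1.3 against 0.7, 0.7, 0.6 and 1.1 (0.60 ± 0.138 SE, adjusted p = 0.00382).

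Markers of the cells that line and patrol the liver sinusoid were called in 1 direction. Of 20 sinusoidal and vascular endothelial genes, 18 were higher in FGF21 than in chow and 0 lower (median 0.82), and 12 and 0 with the GC trend removed. The von Willebrand factor gene Vwf was at 9.4, 9.5, 10.7 and 13.6 TPM against 2.5, 3.2, 3 and 4.3 (1.48 ± 0.164 SE, adjusted p = 5.55e-05). Eng, the co-receptor endoglin, was at 109, 158.2, 122.4 and 166 TPM against 50.4, 57.8, 65.5 and 70.6 (1.16 ± 0.164 SE, adjusted p = 0.000227) and lay above all of MASH vehicle (70, 103.9, 78 and 75, adjusted p = 0.0134). Of 14 markers of Kupffer cells, the resident macrophages, 11 were higher and 0 lower, 9 and 0 with the GC trend removed. Cd5l, a secreted macrophage protein, was at 134.9, 106.5, 78.6 and 132.9 TPM against 28.9, 33.3, 27.1 and 27.4 (1.89 ± 0.161 SE, adjusted p = 9.46e-06), and the lectin Clec4f, which is specific to Kupffer cells in mouse liver, at 94.8, 119.3, 63.5 and 143.8 against 30.2, 29.7, 26.5 and 24.8 (1.83 ± 0.203 SE, adjusted p = 5.52e-05). FGF21 and MASH vehicle overlapped in both, and in neither did that difference pass (adjusted p = 0.642 and 0.404).

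Markers of recruited and lipid-associated macrophages were higher in 11 of 17 cases and lower in 0 (median 0.86), 9 and 0 with the GC trend removed, yet 10 of the 17 were lower in FGF21 than in MASH vehicle (4.28% of all genes). Lpl, lipoprotein lipase, was at 6.7, 15.8, 10.2 and 9.2 TPM in FGF21, 1.2, 1.5, 1.3 and 1.1 in chow and 17.5, 22.1, 22.7 and 19.8 in MASH vehicle (2.28 ± 0.189 SE against chow, adjusted p = 9.43e-06). The FGF21 libraries overlapped neither group. Cd68, a macrophage lysosomal protein, was at 25.6, 28, 17.7 and 20.2 TPM against 7.6, 9.4, 6.3 and 6.6 (1.49 ± 0.161 SE, adjusted p = 4.82e-05) and was likewise under MASH vehicle (37.7, 33.1, 33.4 and 43.1, adjusted p = 0.0188). Adgre1, the macrophage antigen F4/80, was at 4.8, 4.2, 3.5 and 5.3 against 1.8, 1.5, 1.2 and 1.2 (1.16 ± 0.16 SE, adjusted p = 0.00019). Of the markers not called against chow, Trem2, a lipid receptor, and Gpnmb stood at 0.76 and 0.58, and Spp1, osteopontin, at −0.36 (log2 fold change, named after their values were seen). Lysosome and phagocytosis genes were higher in 21 of 29 cases and lower in 3, among them Lamp2 and Ctsl, named after their values were seen (17 and 2 with the GC trend removed). Laptm5 of the lysosomal membrane was at 26.5, 30.7, 22.2 and 34.2 TPM against 8.1, 8, 7.4 and 9.7 (1.65 ± 0.136 SE, adjusted p = 9.43e-06), and the complement gene C1qb at 128.9, 119.9, 99.3 and 109.3 against 44.9, 44.2, 30.9 and 34.1 (1.56 ± 0.139 SE, adjusted p = 1.44e-05).

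Antigen presentation by class II molecules was higher in 7 of 8 genes, but in 1 with the GC trend removed. H2-Aa was at 72.2, 62, 46.4 and 58.8 TPM against 33.4, 20.9, 22.1 and 40.5 (1.04 ± 0.204 SE, adjusted p = 0.00149), and the invariant chain gene Cd74 at 317.2, 229.1, 207.4 and 168.2 against 126.6, 99.7, 93.1 and 143.8 (0.97 ± 0.191 SE, adjusted p = 0.00152, 0.144 with the GC trend removed). Chemokines and cytokines were higher in 8 of 14 cases and lower in 2, Ccl9 and Il18, named after their values were seen (6 and 2 with the GC trend removed). Against MASH vehicle, 5 of the 14 were lower in FGF21 and 0 higher (4.28% and 6.02% of all genes). Tgfb1, which drives matrix deposition, was at 13.3, 14.2, 14.1 and 11.3 TPM against 4.8, 5.4, 5.8 and 5.8 (1.14 ± 0.143 SE, adjusted p = 0.000115), and the scavenging chemokine Cxcl16 at 9.2, 9, 8.9 and 11.3 against 4.2, 3.7, 4.9 and 5.2 (0.95 ± 0.13 SE, adjusted p = 0.000191). Lymphocyte and neutrophil markers were few and low. Of 5 tested genes of T and NK cells 3 were higher (0 with the GC trend removed), with Lck, a T cell kinase, at 1.7, 1.6, 0.9 and 1.2 TPM against 0.8, 0.5, 0.4 and 0.4 and Il2rb, a receptor chain for interleukin-2, at 2, 1.2, 1.2 and 1.5 against 0.9, 0.4, 0.4 and 0.6. Of 4 genes of B and plasma cells Cd79b was higher and Ighm lower, with Ighm, the IgM heavy chain, at 7.2, 6.7, 7.7 and 13.8 TPM against 17.1, 13.9, 19.7 and 19.9 (−0.96 ± 0.202 SE, adjusted p = 0.00224). The call of Cd79b was lost with the GC trend removed (adjusted p = 0.563), and 3 genes were higher without FGF21 replicate 2. Of 3 neutrophil genes 2 were higher, and 2 with the GC trend removed, with Csf3r, the G-CSF receptor, at 3.3, 2.9, 2.3 and 4.1 against 0.7, 1.3, 0.9 and 0.6 TPM and S100a9, a calprotectin chain, at 1.9, 1.1, 2 and 1.4 against 0.4, 0.6, 0.7 and 0.8.

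Interferon response genes were higher in 11 of 19 cases and lower in 1, Oasl1, named after its value was seen, and 5 and 1 with the GC trend removed. Without FGF21 replicates 1 and 3 the counts were 7 and 3. Oas1a, a sensor of double-stranded RNA, was at 7.5, 9.8, 5.4 and 9.5 TPM against 2.3, 2, 1.8 and 2.1 (1.54 ± 0.162 SE, adjusted p = 3.95e-05), and Ifi27l2a at 42.1, 30.1, 34.2 and 17 against 9.6, 10.7, 7.5 and 9.1 (1.58 ± 0.216 SE, adjusted p = 0.000187). MASH vehicle overlapped FGF21 in both (6.8, 6.5, 5.5 and 8.1 and 34.2, 29.4, 39.3 and 36.1). The core of the interferon-stimulated response element, GAAA followed by any 2 letters and GAAA again, was found on either strand in 11 of 14 interferon genes with a promoter window (78.6%), against 4% of all 27025 and 3.8% of those tested. The window of Oas1a, which had the smallest p of the list, is shown 5′ to 3′ on the strand of the gene (chr5:120907476-120907775, minus strand, RefSeq, GRCm38.p6). Capitals mark 2 overlapping matches.
Oas1a: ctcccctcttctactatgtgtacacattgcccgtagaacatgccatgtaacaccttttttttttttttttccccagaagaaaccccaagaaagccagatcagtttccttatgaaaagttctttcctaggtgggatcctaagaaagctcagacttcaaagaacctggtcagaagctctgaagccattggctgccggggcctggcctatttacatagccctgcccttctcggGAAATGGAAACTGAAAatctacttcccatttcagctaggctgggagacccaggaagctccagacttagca

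Matrix and stellate cell genes were above chow in number, less so with the GC trend removed, and Col1a1 and Timp1 did not pass. Of 26 collagen and matrix genes 16 were higher and 0 lower, where 37.8% of all genes were higher. With the GC trend removed it was 5 and 0, near the share over all genes (1622 of 10810 higher). The list had a median GC content of 54.4% against 50.2% over all genes. MASH vehicle was higher than chow in 23 of the 26 (29.5% of all genes). Between FGF21 and MASH vehicle, 8 were lower in FGF21 and 3 higher, where 4.28% and 6.02% of all genes were. The 3 include Mmp14. Mmp14, a membrane-bound matrix protease, was at 55.2, 53.1, 45 and 59 TPM against 17.4, 26.4, 24.7 and 20.4 (1.23 ± 0.158 SE, adjusted p = 0.000131), and above all of MASH vehicle (29.3, 38.2, 38 and 26, adjusted p = 0.0167). Timp2, a protease inhibitor, was at 5.5, 6.4, 7.8 and 6.2 against 3.1, 3.7, 3.2 and 3.5 (0.77 ± 0.123 SE, adjusted p = 0.000482, 0.0622 with the GC trend removed). Col1a1, a chain of collagen I, was at 2.5, 4.6, 4.2 and 2.3 TPM in FGF21, 1.2, 1.5, 1.6 and 2.3 in chow and 4.3, 7.9, 22 and 11.1 in MASH vehicle. Its difference from chow had an interval of −0.03 to 1.45 and was not called (adjusted p = 0.0969), although the threshold was met when MASH vehicle replicate 1 (0.0446) or 3 (0.0332) was left out and when only FGF21 and chow were fitted (0.0186). Timp1, an inhibitor induced in scarring, was at 0.4, 0.2, 0.5 and 0.3 TPM against 0, 0.1, 0.2 and 0.3, where MASH vehicle was at 2, 1.5, 3.5 and 2.6 (interval −0.11 to 0.57 against chow, adjusted p = 0.229).

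Of 16 stellate cell and myofibroblast genes 12 were higher and 0 lower, 5 and 0 with the GC trend removed. The filament gene Vim was at 31.8, 32.9, 33 and 24.6 TPM against 10, 11, 11 and 13.5 (1.35 ± 0.173 SE, adjusted p = 0.00013), and Des, desmin, at 9.2, 5.9, 12.4 and 6 against 2.3, 2.6, 2.9 and 3.4 (1.25 ± 0.197 SE, adjusted p = 0.000414). Des was highest in FGF21 replicates 1 and 3, and so was Acta2, smooth muscle actin, at 15.2, 2, 18.5 and 2.2 TPM against 2.6, 2, 2.8 and 2.8 (adjusted p = 0.0912). Acta2 passed without FGF21 replicate 2 (0.0249) or 4 (0.0309), and without replicates 1 and 3 its log2 fold change was −0.19 in place of 1.07 ± 0.509 SE. These are the libraries that carry the acinar transcripts, whose part in the values was not tested. FGF21 replicates 2 and 4 had Acta2 at the level of chow. Ductular genes gave 1 call in 8, the keratin Krt23 at 4.2, 11.2, 8.3 and 9.9 TPM against 1.8, 4.1, 1.8 and 2.8 (1.35 ± 0.327 SE, adjusted p = 0.00489). With the GC trend removed 1 was higher and 4 lower.

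**Figure D4:**
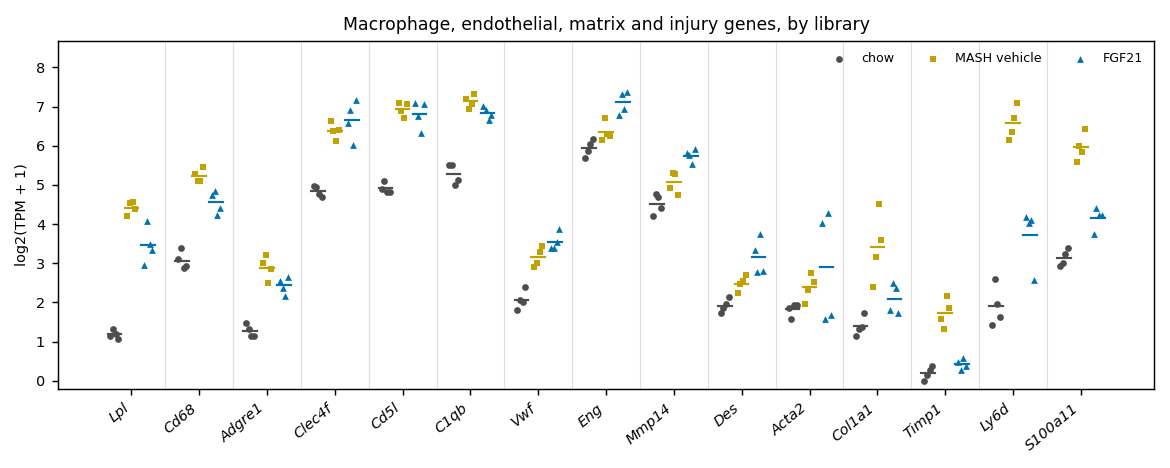
The horizontal axis lists macrophage, endothelial, matrix and injury genes, and the vertical axis is log2(TPM + 1). Points are libraries, 4 per group, and short lines are group means. The FGF21 libraries overlap MASH vehicle in Clec4f, Cd5l and C1qb, lie between chow and MASH vehicle in Lpl, Cd68 and S100a11, and lie above both in Eng, Mmp14 and Des, while Acta2 is high in FGF21 replicates 1 and 3 only.

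Genes of hepatocyte injury and senescence were higher in 6 of 13 cases and lower in 0, where 37.8% of all genes were higher. With the GC trend removed it was 2 and 0, near the share over all genes (1622 of 10810 higher). Of the 13, 8 were lower in FGF21 than in MASH vehicle (4.28% of all genes). Ly6d, a surface protein of injured hepatocytes, was at 17, 15.3, 16.3 and 4.9 TPM in FGF21, 1.7, 5.1, 2.9 and 2.1 in chow and 70.5, 80.8, 104.4 and 135.6 in MASH vehicle (1.81 ± 0.349 SE against chow, adjusted p = 0.00139). FGF21 replicate 4 reached into the chow range. S100a11, a calcium-binding protein, was at 12.5, 20.2, 17.8 and 17.8 TPM against 6.6, 7.1, 8.5 and 9.5 and 47.2, 63, 56.8 and 85 (1.01 ± 0.185 SE against chow, adjusted p = 0.00103), with no overlap between any of the groups. Cell cycle genes were higher in 7 of 16 cases, near the 37.8% of all genes, and lower in 1, Pcna, named after its value was seen. Against MASH vehicle, 5 of the 16 were lower in FGF21 and 0 higher (4.28% and 6.02% of all genes). With the GC trend removed, 1 was higher than chow and 1 lower. Tuba1b, a tubulin, was at 150, 130.4, 135.6 and 102.3 TPM against 88.2, 70.2, 72.6 and 78.5, a call lost with that removal (adjusted p = 0.254), and Mcm7, of the replication helicase, at 9.1, 14, 12.8 and 20.2 against 6.7, 6.1, 6.9 and 6.7 (0.93 ± 0.177 SE, adjusted p = 0.00125).

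Of 15 genes of the integrated stress response, which ATF4 drives when translation is curbed, 8 were higher and 0 lower, and 4 and 0 with the GC trend removed (5 without FGF21 replicates 1 and 3). Sesn2, a stress-induced restraint on mTORC1, was at 17.8, 22.7, 11.3 and 20.4 TPM against 6.4, 6.9, 5.8 and 5.8 (1.36 ± 0.181 SE, adjusted p = 0.000163) and above MASH vehicle (12.1, 12.6, 9.3 and 9.5, adjusted p = 0.0382). Psat1, of serine synthesis, was at 0.9, 1, 0.5 and 0.4 TPM against 0.1 in each chow library. ER chaperones were split, 3 of 17 higher and 4 lower (1 and 4 with the GC trend removed), with Hyou1 at 200.4, 202.5, 167.6 and 180.8 TPM against 92.7, 43.9, 98.4 and 94.5 (1.24 ± 0.252 SE, adjusted p = 0.00182) and Pdia3, a disulfide isomerase, at 114.4, 49.4, 63.5 and 53 against 154.7, 136.4, 103.5 and 96.9 (−0.86 ± 0.231 SE, adjusted p = 0.00848). Acute phase genes were higher in 7 of 21 cases, near the 37.8% of all genes. They were lower in 2, Fgb and Steap4, named after their values were seen (3 and 2 with the GC trend removed). Against MASH vehicle, 8 of the 21 were lower in FGF21 and 1 higher, Itih4 (4.28% and 6.02% of all genes). Lbp, which binds bacterial lipopolysaccharide, was at 65.5, 94.2, 70.2 and 122.5 TPM against 27.3, 39.3, 31.9 and 31.4 (1.38 ± 0.176 SE, adjusted p = 0.000127), and Itih4 at 930.1, 1361.3, 1079.1 and 1729 against 527.6, 611.4, 563.2 and 705 (1.05 ± 0.168 SE, adjusted p = 0.000457). Of 17 clock genes 3 were higher and 2 lower, under the shares of all genes (37.8% and 14.2%). With the GC trend removed it was 0 and 2. The repressor genes Nfil3 and Nr1d2 were at 24.6, 32.1, 16.8 and 22.9 against 20.3, 12.5, 7.8 and 8.6 TPM and at 14.3, 9.4, 12.6 and 11.5 against 15.4, 19.4, 18.4 and 19, and both calls were lost with that removal (adjusted p = 0.189 and 0.148).

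Genes of the NRF2 response and glutathione use were split, with 6 of 25 higher and 7 lower (4 and 8 with the GC trend removed). Over all genes 37.8% were higher and 14.2% lower. Against MASH vehicle, 14 of the 25 were lower in FGF21 and 0 higher, where 4.28% and 6.02% of all genes were. Gss, glutathione synthetase, was at 109.2, 131.9, 119.3 and 98.2 TPM against 50.3, 59.9, 52.8 and 62.4 (1.01 ± 0.135 SE, adjusted p = 0.000163), and 6 of the 7 lower members were lower than in MASH vehicle too. Of 9 hepatocyte markers 3 were higher and 3 lower (0 and 2 with the GC trend removed). Apoa1, of HDL, was at 20448.3, 18367, 23356.1 and 15635.1 TPM against 13649.6, 12889, 15928.6 and 16802.9 (0.39 ± 0.13 SE, adjusted p = 0.0253), and turned to −0.14 (adjusted p = 0.517) with the GC trend removed. That call was also lost under median-of-ratios scaling (0.291), without FGF21 replicates 1 and 3 (0.22), and without any one of chow replicates 1 or 2 or FGF21 replicate 3 (0.0688 to 0.0782). Apob, of VLDL, was at 681.8, 360.5, 346.5 and 330.7 TPM against 782.9, 1076.8, 636.8 and 591.4 (−0.87 ± 0.231 SE, adjusted p = 0.00775). Their counts moved with single libraries, from 0 higher without chow replicate 1 to 5 without chow replicate 4, and to 1 lower without any one of chow 1, 3 and 4, MASH vehicle 1 and 2, and FGF21 2 and 3.

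The second question is which differences from chow also set FGF21 apart from MASH vehicle in the same direction. Such a gene may already differ from chow the same way in MASH vehicle, and is then also counted in the class that remained, below. Genes called in both contrasts with the same sign numbered 571 higher (5.2% of genes tested) and 94 lower (0.855%). The contrasts share the FGF21 libraries, so these counts define the class and do not measure likeness. They rest on single libraries. Without FGF21 replicate 1 they were 1162 and 424, and without FGF21 replicate 2 they were 224 and 56. The higher count was 236, 254 and 275 without MASH vehicle replicates 1, 3 and 4 and 359 without FGF21 replicate 4, and the lower count was 60 without MASH vehicle replicate 4. With FGF21 replicates 1 and 3 both left out the counts were 1642 and 629. With the GC trend removed they were 168 and 186.

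Lepr, the leptin receptor, whose signal in brain curbs feeding and whose liver RNA encodes mostly short and soluble forms, had the largest fold over MASH vehicle among the 5 rises named (chromosome 4, 101717404 to 101815352). It was at 8.8, 5, 3.3 and 6.6 TPM in FGF21, 0.7, 0.6, 1.1 and 0.9 in chow and 1.5, 1.5, 1.3 and 0.9 in MASH vehicle. Its log2 fold change was 1.87 ± 0.205 SE against chow (adjusted p = 5.3e-05) and 1.53 ± 0.205 SE against MASH vehicle (adjusted p = 0.00122). Pcp4l1, a relative of the calmodulin-binding protein PCP4, was at 8.3, 5.1, 6 and 6.6 TPM, 0.6, 1.1, 0.9 and 1.1 and 3.2, 2.7, 1.9 and 2.3 in the same order (1.95 ± 0.154 SE against chow, adjusted p = 9.43e-06, and 0.0015 against MASH vehicle). Retsat, which saturates retinol, was at 926.8, 1490.1, 773.5 and 1111 TPM, 245.8, 338.9, 276.4 and 266.6 and 637.6, 765.3, 731.5 and 546.4 (1.90 ± 0.181 SE, adjusted p = 2.24e-05 and 0.0385). Abi3, of the Abl interactor family, and Cpne2, a copine, were at 13.1, 25.2, 12.3 and 21.3 and 15.2, 20, 15.9 and 22.7 TPM, against 3.4, 3.2, 4 and 4 and 4.2, 4.4, 4.2 and 4.2 in chow. Against MASH vehicle limma's adjusted p was 0.0343 for Abi3 and 0.0237 for Cpne2. In these last 4 genes MASH vehicle lay between chow and FGF21 and was called higher than chow. The adjusted p of limma there was 0.000913 for Pcp4l1, 0.000228 for Retsat, 0.000423 for Abi3 and 2.75e-05 for Cpne2. For Lepr MASH vehicle was at most 1.5 TPM and did not differ from chow past the threshold (adjusted p = 0.209).

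The falls named were all of genes at which MASH vehicle was near chow or between the groups. Cib3, of the calcium and integrin binding family, was at 0.6, 1.9, 2.5 and 0.5 TPM in FGF21, 4.2, 5.1, 22.7 and 9.3 in chow and 10.4, 5.9, 11.6 and 21.7 in MASH vehicle (−2.08 ± 0.461 SE against chow, adjusted p = 0.00302, and 0.00675 against MASH vehicle). Gsta2, a glutathione transferase with close paralogs, was at 10.8, 17.7, 10.1 and 8.7 TPM, 37.2, 68, 39.1 and 35.2 and 37.9, 24.8, 23.7 and 33.9 (−1.83 ± 0.24 SE, adjusted p = 0.000147 and 0.00649). Nat8, an N-acetyltransferase that finishes glutathione conjugates as mercapturic acids, was at 5.6, 11.1, 9.3 and 7.9 TPM, 31.3, 29.1, 36.6 and 29.7 and 15.6, 18, 22.1 and 26.7 (−1.82 ± 0.191 SE, adjusted p = 3.95e-05 and 0.00307). Aqp8, a water channel of hepatocytes (chromosome 7, 123462291 to 123468004), was at 178.8, 166, 287.6 and 154.9 TPM, 662.1, 581, 562.2 and 397.9 and 377.5, 521.7, 522 and 438.1 (−1.50 ± 0.199 SE, adjusted p = 0.000159 and 0.00271). Bhmt, described above, is the fifth. For Cib3, Gsta2 and Aqp8 the difference between MASH vehicle and chow did not pass (adjusted p = 0.521, 0.0922 and 0.364). Bhmt and Nat8 were called lower in MASH vehicle than in chow (adjusted p = 0.0112 and 0.0226). All 10 genes kept their call against chow with the GC trend removed. Whether each kept its call against MASH vehicle in that setting was not checked.

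**Figure D5:**
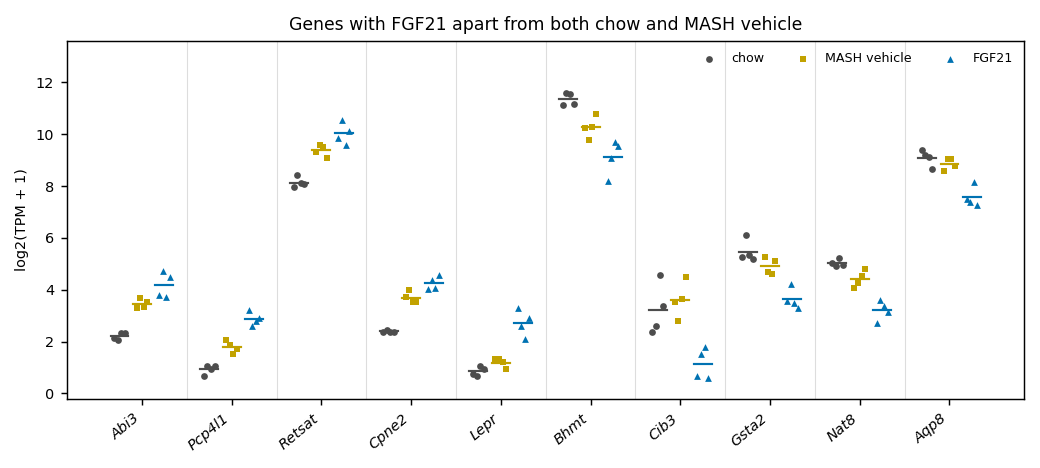
The horizontal axis lists the 5 largest rises and 5 largest falls against chow among genes called the same way against chow and against MASH vehicle, whose FGF21 libraries lie all above or all below both groups, and the vertical axis is log2(TPM + 1). Points are libraries, 4 per group, and short lines are group means. Lepr and Aqp8 have MASH vehicle beside chow, while Retsat, Cpne2 and Abi3 have MASH vehicle in between.

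Of 22 secreted liver factors and receptors, 7 were higher and 2 lower, both under the shares of all genes (37.8% and 14.2%). With the GC trend removed it was 4 and 3. Enho, which encodes the peptide adropin, was at 6, 2.7, 5.4 and 5.1 TPM in FGF21, 10.8, 4.4, 21.3 and 11.9 in chow and 1.1, 0.9, 0.7 and 0.5 in MASH vehicle. It was below chow (−1.04 ± 0.332 SE, adjusted p = 0.0189) and above MASH vehicle (1.66 ± 0.332 SE, adjusted p = 0.0091), and its call against chow was lost without chow replicate 3 (0.0535) or FGF21 replicate 2 (0.0647).

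What remained is the larger class. Of the 4153 genes higher in FGF21 than in chow, 2429 (22.1% of genes tested) were also called higher in MASH vehicle than in chow, and of the 1560 lower genes 673 (6.12%) were also called lower. Both contrasts use the same chow libraries, so a chance deviation of chow enters both, and the counts are definitions. Of these genes, FGF21 and MASH vehicle did not differ past the threshold in 2238 and 656. FGF21 was nearer chow than MASH vehicle, with that difference called, in 124 of the higher and 6 of the lower, and the rest stand in the class apart from both. The lower count was 402 and 340 without chow replicates 1 and 2, 401 and 376 without MASH vehicle replicates 2 and 4, and 1018 without FGF21 replicate 1. A further 1220 higher and 804 lower genes were called between FGF21 and chow and in neither other contrast in that direction, and 979 were called between MASH vehicle and chow only, which does not show that FGF21 equals chow there.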

How the data were processed

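RNA was measured in 12 mouse liver libraries, 4 in each of 3 groups assigned from the titles. Per the submitters' processing notes, Trim Galore 6.10, Salmon 1.10.2 and mm10 were used. The deposited table holds TPM values that the authors made with Salmon, for 14822 gene symbols, rounded to 1 decimal. They are read as TPM because each library sums to just under 1000000 (lowest 991794.2, in FGF21 replicate 3), although the sheet is named FPKM. How transcripts were joined to genes, and any filter, is not given in the sources used here. Read depth is unknown, so no counting interval is given.

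From these values log2(TPM + 1) was computed for the 10988 genes (74.1%) with at least 1 TPM in at least 4 libraries. Limma 3.58.1 in R 4.3.3, with trend and robust options, fitted the 3 groups over all 12 libraries, with Benjamini-Hochberg adjustment and a threshold of 0.05. The script was tested on simulated data. GC content and positions came from GENCODE M21 (GRCm38), and promoter sequences from RefSeq. Shares of the total were compared by exact permutation. Alternatives were pseudocounts, filters, scalings, the GC trend removed, the fit without the trend and robust options, only 2 groups, a replicate block, and libraries left out.

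The members, lists and named genes were chosen with earlier results of these data known. Named were the 6 largest rises and falls with groups that do not overlap and a mean of at least 5 TPM in the higher group; the 5 largest each way, under the same conditions, among genes called the same way against chow and MASH vehicle and with all FGF21 libraries above, or all below, both groups; the 2 called members with the smallest p in each list with at least 3 tested members; and 14 preset genes. Predicted, Mup, immunoglobulin, T cell receptor and acinar genes were left out of the first pair of rules. Some genes that these rules or the counts would name are not reported here.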

Additional observations from a re-analysis of the deposited data

Results flagged for a closer look

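In 70 groups of 4 libraries (32 named genes and 3 library shares), 9 held a library far from the other 3 by Dixon's test. The test flags about 1 group in 20 by chance only for independent normal values. These groups share libraries and hold genes chosen by their values, so the 9 cannot be set against that rate. Of the 9, 6 were chow replicate 2. Its TPM was 3.1 for Cyp2a4, 202.6 for Cyp4a14, 68.0 for Gsta2, 7.2 for Fgf21 and 11.7 for Klb, and 4.4 for Cpne2, where the other 3 libraries were all at 4.2 and the rounding of the table sets the gap. FGF21 replicate 1 was far above its group for Cyp2a4 (61.5 TPM) and Idi1 (57.4 TPM), and FGF21 replicate 4 far below it for Fgf21 (5.0 TPM).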

How the results depend on the processing

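Over 25 settings, the 109 named genes kept direction and side of the threshold in 2624 cases, weakened in 70, strengthened in 7 and reversed in 4, namely Apoa1 (−0.14) and Dgat1 (−0.10) with the GC trend removed, with and without the block. The counts of genes, 4153 higher, 1560 lower, 571 above and 94 below both other groups, and 2429 higher and 673 lower than chow in both FGF21 and MASH vehicle, moved by more than 1.5 times as follows. A mean of at least 5 TPM left 964 lower and 404 lower in both. Median-of-ratios scaling gave 2551 higher, 2681 lower, 1059 higher in both and 1655 lower in both. Quantile normalization gave 2528, 2628, 1087 and 1636 in that order, and 146 below both other groups. With mitochondrial, Mup and acinar genes out of the total, 1582 were higher in both. Fitting 2 groups at a time left 281 above both other groups. Removing the GC trend gave 1622 higher, 168 above and 186 below both other groups, and 825 higher in both. Without FGF21 replicates 1 and 3, 1642 were above and 629 below both other groups, 1015 were lower in both, and the shares of mitochondrial and Mup genes differed by −6.38 and −3.75 percentage points but could no longer pass with 2 libraries. Leaving out 1 library gave 3371 to 4449 higher, 950 to 2042 lower, 224 to 1162 above and 56 to 424 below both other groups, 1730 to 2802 higher and 340 to 1018 lower in both, and shares differing by −6.18 to −5.02 (mitochondrial), −3.63 to −2.7 (Mup) and 0.0313 to 0.0793 points (acinar).

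Deviations of libraries with equal replicate numbers correlated at 0.343, −0.123, −0.0574 and 0.405 between chow and FGF21, at 0.284, 0.192, 0.0877 and 0.276 between MASH vehicle and FGF21, and at 0.258, −0.0575, −0.176 and 0.403 between chow and MASH vehicle. In none of these were all 4 over 0.1, so the numbers were not taken as pairs, and not every library correlated best with its own number. With the replicate block 4389 genes were higher, 1722 lower, 840 above and 150 below both other groups. With the block and the GC trend removed, 1828 were higher, 244 above and 248 below both other groups, and 937 higher in both. The cause of these moves was not tested, and read depth, which limits low genes, is unknown.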
